A study of Mus musculus with 10 samples.

Results

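The subunits of the phagocyte NADPH oxidase were followed in RNA-seq libraries of mouse Ly6G+ neutrophils collected at day 3 after myocardial infarction (MI). The 6 genes Cybb, Cyba, Ncf1, Ncf4, Rac1 and Rac2 were taken by name, as parts of the complex and with earlier results of these data known, out of 28185 genes in the deposited tables, and all 6 passed the filter on low values. All mice were 12- to 16-week-old C57Bl/6J males with permanent ligation of the left coronary artery (LCA), so every group, controls included, had an infarct. The groups were cardiac neutrophils without treatment (MI, n = 3), cardiac neutrophils after syngeneic bone marrow mesenchymal stromal cells (MSCs) injected under the skin at 3 sites soon after ligation (MI + MSC, n = 3), and blood neutrophils of infarcted mice without (Blood, n = 2) and with MSCs (Blood + MSC, n = 2). Anti-Ly6G beads captured the cells from blood or from the dissociated infarct-bearing left ventricle, which enriches neutrophils but leaves room for other cells. Libraries are named by group and by the number in their labels. The labels give each group a batch name of its own, so a batch cannot be told apart from its group. They do not say which libraries came from the same mouse, and p-values measure the spread between these libraries.

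The phagocyte NADPH oxidase moves electrons from NADPH to oxygen and releases superoxide into the phagosome or out of the cell, which is the oxidative burst that neutrophils use against microbes. Its parts are kept apart at rest. Cybb, the catalytic subunit, and Cyba, its stabilising partner, form the cytochrome in the membrane, while the organiser Ncf1 and the phosphoinositide-binding Ncf4 wait in the cytosol and a Rac GTPase completes the complex on activation. Rac2 is restricted largely to blood cells and is the main Rac of the neutrophil oxidase, and Rac1 is found in most cell types. The comparisons asked whether the transcripts of these parts differed between infarct and blood, and whether they differed with MSC treatment in either compartment.

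Reads on genes ranged from 148594 in MI 13 to 8602711 in Blood + MSC 24, and the deposited values are these reads divided by a DESeq2 size factor, called normalized counts here. A single read is worth 8.40 normalized counts for MI 13, 7.07 for Blood 21 and 0.168 to 2.30 for the 8 deeper libraries. In MI 13 each subunit gene rested on 14 to 35 reads and in Blood 21 on 56 to 259. The summed level of 12 neutrophil markers ran from 2731 to 8472 normalized counts across MI, from 3110 to 14928 across MI + MSC, from 45558 to 54394 across Blood and from 17190 to 24967 across Blood + MSC. Ly6g itself, the selection marker, ran from 16.8 to 26.9 across MI, from 4.75 to 13.8 across MI + MSC, from 198 to 645 across Blood and from 41.2 to 57.0 across Blood + MSC. The 13 macrophage and monocyte markers summed to 5320 to 20232 in the cardiac libraries and 11264 to 22743 in the blood libraries. The 8 striated muscle markers summed to 1307 to 10531 in the heart and to 9.72 or less in blood (Tnnt2 at 0 in both Blood libraries), and 6 platelet markers summed to 24128 in Blood 21 against 437 to 1748 elsewhere. In bulk libraries of this kind, fewer neutrophils among the selected cells and less RNA per neutrophil cannot be told apart, and the part of these differences in the results below was not tested.

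**Figure D1:**
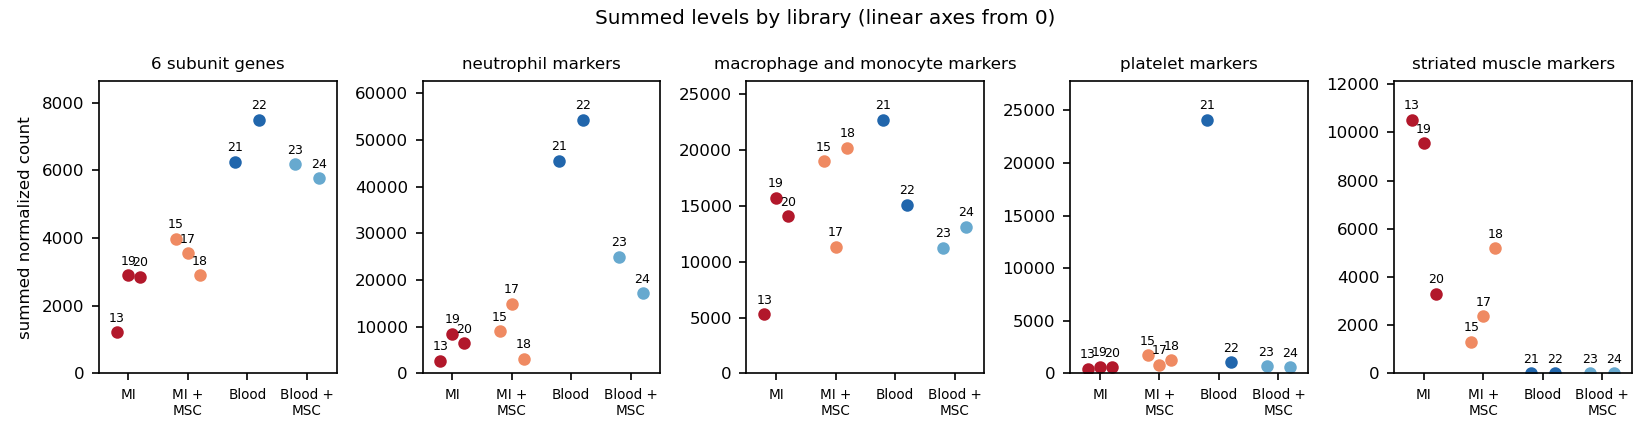
Summed normalized counts of the 6 subunit genes and of 4 marker lists in each library (vertical axes, linear from 0; points are libraries, numbered by label). The subunit genes sum to 1219 to 3975 in the cardiac libraries and 5763 to 7500 in the blood libraries; the neutrophil markers also sit lower in the heart, striated muscle markers are near 0 in blood, and Blood 21 stands apart for platelet markers.

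The genes lie on 4 chromosomes of GRCm39. Cybb (ENSMUSG00000015340) spans X:9301491-9354010 on the minus strand, Cyba (ENSMUSG00000006519) 8:123150422-123159706 on the minus strand, and Ncf1 (ENSMUSG00000015950) 5:134248907-134258479 on the minus strand. Ncf4 (ENSMUSG00000071715) spans 15:78128982-78146784 on the plus strand, Rac1 (ENSMUSG00000001847) 5:143489389-143514493 on the minus strand, and Rac2 (ENSMUSG00000033220) 15:78443367-78457429 on the minus strand. Ncf4 overlaps no other gene and the other 5 overlap only genes on the opposite strand, and the reads were counted by strand. The windows from 250 bases before to 50 bases after the canonical start are shown for Rac2, which had the lowest fold change between heart and blood, for Ncf4, which fell with Rac2, and for Cybb, which did not pass the test. They were read 5′ to 3′ on the gene's strand from GRCm39 at chr15:78457380-78457679, chr15:78128732-78129031 and chrX:9335521-9335820, and capitals mark the letters GAGGAA or, for the other strand, TTCCTC, a core of sites bound by PU.1, the myeloid transcription factor encoded by Spi1. The starts are those of the gene annotation. The Cybb window shares 293 bases with its window in the RefSeq promoter table, where Rac2 and Ncf4 have 0 windows, so their starts were not compared with it.
Rac2: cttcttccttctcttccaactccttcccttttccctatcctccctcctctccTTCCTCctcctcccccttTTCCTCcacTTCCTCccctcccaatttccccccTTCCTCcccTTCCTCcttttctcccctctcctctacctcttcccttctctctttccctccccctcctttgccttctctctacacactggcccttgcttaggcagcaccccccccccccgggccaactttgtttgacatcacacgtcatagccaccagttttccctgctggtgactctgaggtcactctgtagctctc
Ncf4: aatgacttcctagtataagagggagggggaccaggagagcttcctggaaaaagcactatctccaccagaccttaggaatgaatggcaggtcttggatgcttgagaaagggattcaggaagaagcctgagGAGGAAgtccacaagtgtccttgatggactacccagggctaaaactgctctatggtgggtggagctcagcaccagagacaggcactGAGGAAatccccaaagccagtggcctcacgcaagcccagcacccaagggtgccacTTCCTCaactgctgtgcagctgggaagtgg
Cybb: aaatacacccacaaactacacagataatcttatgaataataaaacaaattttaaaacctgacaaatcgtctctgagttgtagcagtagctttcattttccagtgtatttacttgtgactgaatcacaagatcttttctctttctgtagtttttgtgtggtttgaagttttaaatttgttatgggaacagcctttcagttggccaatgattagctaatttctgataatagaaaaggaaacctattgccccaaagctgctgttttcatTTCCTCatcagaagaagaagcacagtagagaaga

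The Rac2 window had 56.7% G and C and 2 CpG dinucleotides. The median over 21757 coding promoters of the same length was 54.3% and 11. Rac2 held 5 matches to the core, all on the opposite strand in a pyrimidine-rich stretch with first bases from -198 to -138 relative to the start, Ncf4 held 3 and Cybb 1. The windows of Cyba and Ncf1 held 0 matches. Of all 21757 windows, 27.6% held at least 1 match, so a match is common, and none of these matches is evidence of binding. The Cybb window had 34% G and C, lower than all but 2.31% of the windows, and a CCAAT at -49, a motif that 39.9% of the windows also held. The Rac2 window held a CCAAT too, at -160.

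Without MSCs, 4 of the 6 oxidase transcripts were lower in the Ly6G+ cells of the infarct than in those of blood. In limma on all 11549 tested genes, Cyba, Ncf1, Ncf4 and Rac2 were called lower in MI than in Blood (Benjamini-Hochberg adjusted p under 0.05 and a log2 fold change of at least 0.5 in size). That is 4 of 6 genes, against 13.5% of all tested genes called lower in this comparison. Their groups were separate too, with each MI library below each Blood library in those 4 genes, which 23.6% of all tested genes also were. The median log2 fold change was -1.47 over the 6 genes and 0.15 over all tested genes. In the comparison of the treated groups, MI + MSC against Blood + MSC, which uses 5 other libraries, Ncf4 and Rac2 were called lower, against 5.85% of all tested genes. Cyba, Ncf1, Ncf4 and Rac2 again had every cardiac library below every blood library, a pattern that 29.7% of all tested genes met, and the median was -0.62 over the 6 genes against 0.09 over all. The neutrophil markers moved the same way, with 10 of 12 called lower in MI than in Blood (median -3.09) and 2 of 12 in MI + MSC than in Blood + MSC (median -2.06). The lists of other cells went in both directions. Of 13 macrophage and monocyte markers, 5 lay above 0 and 8 below in MI against Blood (median -0.39). In MI + MSC against Blood + MSC, 11 lay above 0 and 2 below (median 0.52). Of all tested genes, 54.6% and 53.9% lay above 0 in these comparisons. Ms4a7 (7.07 and 9.75 in Blood) and Cx3cr1 (0 and 7.80) were under 10 in both Blood libraries. They passed the filter largely through cardiac values, so calls in this list are not counted. Genes of the other lists passed the filter largely through the tissue where they are high, so their sums are given with no test. In MI, MI + MSC, Blood and Blood + MSC, 6 endothelial markers summed to 1614 to 1758, 378 to 720, 61.7 to 601 and 30.7 to 40.9. The 601 was in Blood 21, where Pecam1 gave 586 and Kdr, Egfl7 and Emcn were at 0. The 8 striated muscle markers summed to 3296 to 10531 in MI, 1307 to 5190 in MI + MSC and 9.72 or less in blood. In the same order of groups, 6 platelet markers summed to 437 to 615, 822 to 1748, 1051 to 24128 and 566 to 666. The 5 erythroid markers summed to 116 to 286, 48.7 to 129, 480 to 9442 and 2570 to 5420. The part of these cells in the oxidase values was not tested.

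**Figure D2:**
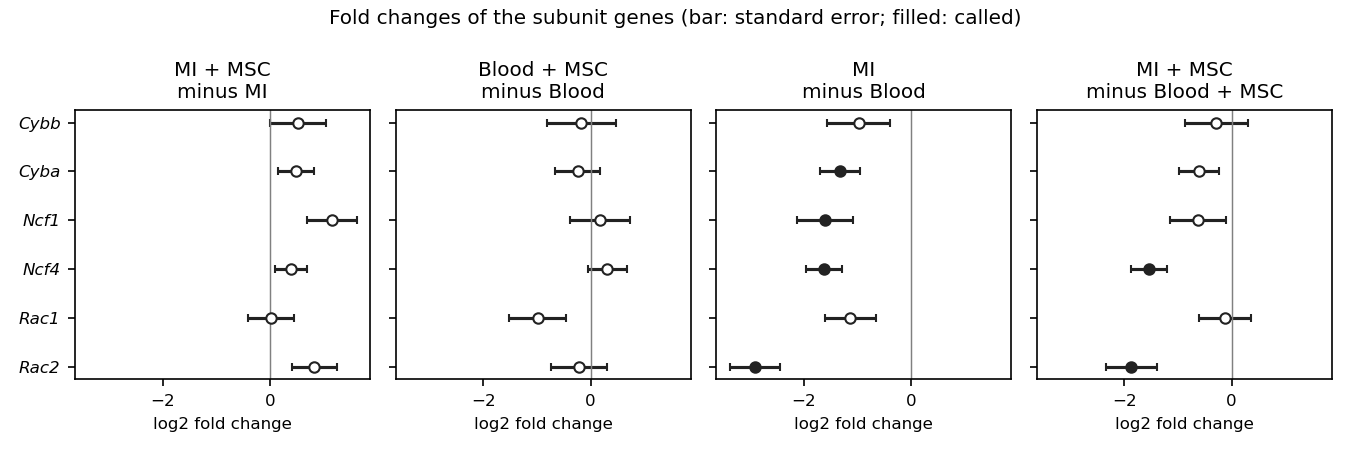
Log2 fold change of each subunit gene (horizontal axis, on the log2(normalized count + 2) scale) in the 4 comparisons, with standard errors as bars and filled points where the gene was called. In MI minus Blood 4 points are filled, in MI + MSC minus Blood + MSC those of Ncf4 and Rac2 are, and in both comparisons of MSC treatment none is.

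Of the membrane subunits, Cyba gave 210, 461 and 409 normalized counts for MI 13, 19 and 20, and 516, 425 and 490 for MI + MSC 15, 17 and 18. In blood it gave 692 and 1060 for libraries 21 and 22 without MSCs, and 729 and 719 for libraries 23 and 24 with MSCs. All values below are listed in this order. Every blood library was above every cardiac library. Cyba was lower by a log2 fold change of -1.32 (SE 0.38, limma adjusted p = 0.0200) in MI than in Blood, but the call was lost without Blood 22 (-1.02, adjusted p = 0.108) and with library size scaling (-0.80, adjusted p = 0.0838). In MI + MSC against Blood + MSC it was -0.60 (SE 0.38, adjusted p = 0.297), and it was called lower there by DESeq2 on the groups compared (-0.69, adjusted p = 0.0109) and without MI 13 and Blood 21 (-0.60, adjusted p = 0.0354), where 18.9% and 19.9% of all genes were called lower. Cybb, the catalytic subunit, gave 143, 629 and 570 for MI, 606, 356 and 706 for MI + MSC, 608 and 884 for Blood, and 526 and 806 for Blood + MSC. Its ranges overlapped between heart and blood in both comparisons. The log2 fold change of Cybb was -0.98 (SE 0.58, adjusted p = 0.210) in MI against Blood and -0.29 (SE 0.58, adjusted p = 0.775) in MI + MSC against Blood + MSC, and neither passed the test. MI 13, with 17 reads on Cybb, was the low value in the MI group.

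Of the cytosolic subunits, Ncf1, the organiser whose phosphorylation starts assembly, gave 294, 760 and 775 normalized counts for MI and 1559, 1674 and 744 for MI + MSC. Blood levels were 1470 and 1973 without MSCs, then 2081 and 1783 with them. MI + MSC 15 and 17 thus lay between both Blood libraries, while MI + MSC 18 lay with the MI libraries. Ncf1 was lower by -1.61 (SE 0.52, limma adjusted p = 0.0331) in MI than in Blood, and the call was lost without MI 13 (-1.15, adjusted p = 0.0553), without Blood 21 (-1.82, adjusted p = 0.0656), without Blood 22 (-1.39, adjusted p = 0.133) and with library size scaling (-1.09, adjusted p = 0.0747). In MI + MSC against Blood + MSC the log2 fold change was -0.63 (SE 0.52, adjusted p = 0.435). Ncf4, which binds phosphatidylinositol 3-phosphate on the phagosome, gave 160, 176 and 186 for MI, 285, 243 and 174 for MI + MSC, 396 and 730 for Blood, and 734 and 607 for Blood + MSC. The lowest blood library was above the highest cardiac library. Ncf4 was lower by -1.62 (SE 0.33, adjusted p = 0.00462) in MI than in Blood and by -1.54 (SE 0.33, adjusted p = 0.0126) in MI + MSC than in Blood + MSC. The first call was kept under all 21 alternatives, with adjusted p-values from 1.99e-05 to 0.0265.

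Of the GTPases, Rac2 gave 118, 305 and 312 normalized counts for MI and 480, 466 and 281 for MI + MSC. Blood levels were 1258 and 2286 without MSCs, then 1571 and 1356 with them. Every blood library was far above every cardiac library. Rac2 had the lowest log2 fold change of the 6 genes in both comparisons of tissue, at -2.91 (SE 0.47, limma adjusted p = 0.00131) in MI against Blood and -1.87 (SE 0.47, adjusted p = 0.0238) in MI + MSC against Blood + MSC. The ratio of group means was 7.23 in favour of Blood over MI. The call in MI against Blood was kept under all 21 alternatives, with adjusted p-values from 7.69e-10 to 0.00886. The calls of Ncf4 and Rac2 in MI + MSC against Blood + MSC were less firm. Both were lost without MI + MSC 18 (adjusted p = 0.0544 and 0.0924), without Blood + MSC 23 (0.156 and 0.206) and without Blood + MSC 24 (0.0661 and 0.106), and that of Rac2 also without MI + MSC 15 (0.0505). The share of all genes called lower fell there too, to 2.12% without MI + MSC 18, 0.348% without Blood + MSC 23, 1.09% without Blood + MSC 24 and 2.72% without MI + MSC 15. Their log2 fold changes over all alternatives stayed between -1.85 and -1.34 for Ncf4 and between -2.17 and -1.62 for Rac2.

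Rac1 had a different distribution. It gave 294, 570 and 599 normalized counts for MI, 531, 386 and 512 for MI + MSC, 1830 and 568 for Blood, and 537 and 492 for Blood + MSC. A single library, Blood 21, stood far above the other 9, which ranged from 294 to 599. The log2 fold change was -1.13 (SE 0.48, limma adjusted p = 0.0885) in MI against Blood and -0.29 (adjusted p = 0.653) without Blood 21. Without Blood 22, so with Blood 21 alone, it was called lower (-1.97, adjusted p = 0.00951). DESeq2 over all libraries and limma-voom with quality weights also called it lower (-1.29 and -1.53, adjusted p = 0.0222 and 0.0221). In MI + MSC against Blood + MSC it was -0.12 (SE 0.48, adjusted p = 0.891). Blood 21 is the library with the high platelet marker sum, and the part of platelet RNA in its Rac1 level was not tested.

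**Figure D3:**
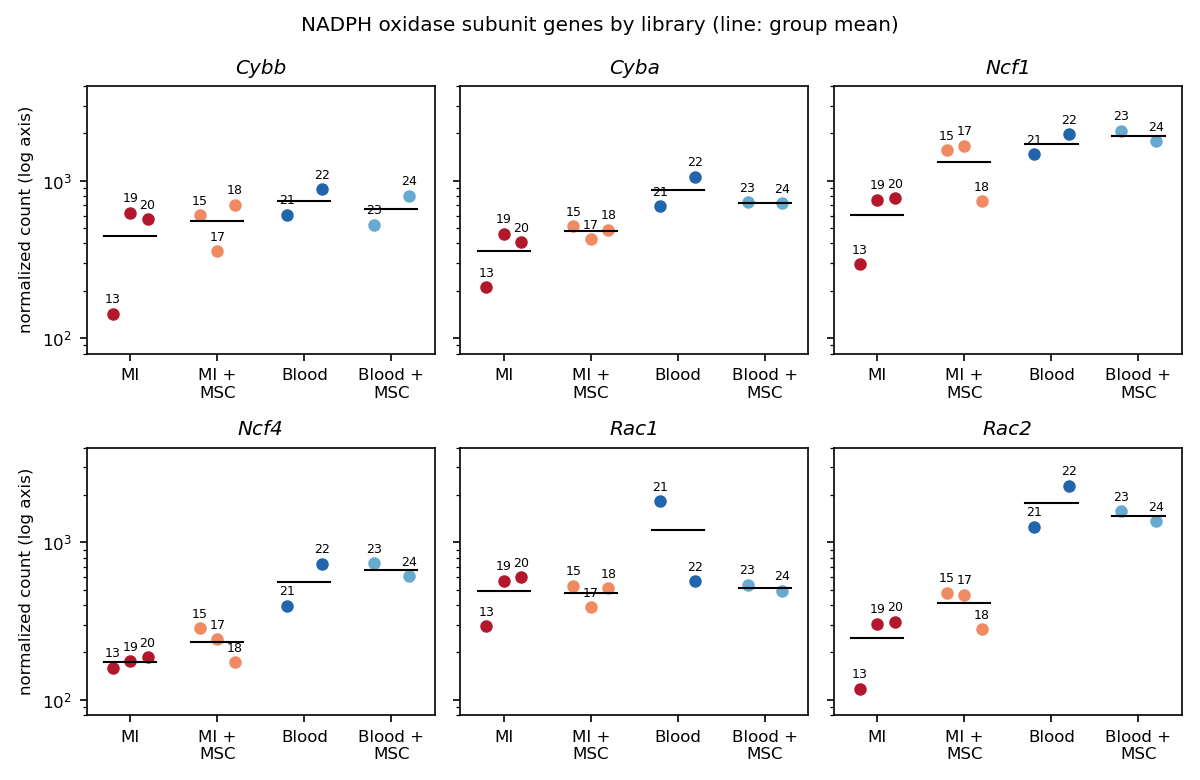
Normalized counts (vertical log axis) of each subunit gene in the 10 libraries, by group, with points numbered by label and lines at the group means. Cyba, Ncf4 and Rac2 are lower in each cardiac library than in each blood library, Cybb and Ncf1 overlap between the tissues, and Rac1 lies between 386 and 599 in all libraries but Blood 21 (1830) and MI 13 (294).

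As both GTPases are read in the same library, their ratio is free of the scaling between libraries. The level of Rac2 per kilobase of exon divided by that of Rac1 was 0.550, 0.721 and 0.703 for MI, and 1.22, 1.63 and 0.739 for MI + MSC. Among blood libraries it was 0.927 and 5.42 without MSCs, then 3.94 and 3.71 with them. The ratio was thus above 3 in 3 blood libraries and below 2 in all cardiac libraries, with Blood 21 among the cardiac values. On the log2 scale it was -0.22 ± 0.58 (SD, n = 6) in the heart and 1.55 ± 1.13 (SD, n = 4) in blood, a difference of -1.77 or 3.4-fold (two-sided exact permutation test, p = 0.0286, where 0.0095 is the smallest the design allows). Without Blood 21 the difference was -2.32 (exact permutation p = 0.0238) and the tissues did not overlap. Without Blood 22, Blood + MSC 23 or Blood + MSC 24 it was -1.47, -1.62 and -1.65, each with an exact permutation p of 0.0714. Within the libraries without MSCs the difference was -1.78, and within those with MSCs it was -1.75, where 3 against 2 libraries cannot go below the exact permutation p of 0.2 that both gave. In reads, Rac2 took 28.6% (95% Clopper-Pearson interval 16.6 to 43.3) of the Rac1 and Rac2 reads in MI 13, 40.7% (36.1 to 45.5) in Blood 21 and 80.1% (78.9 to 81.3) in Blood 22, and these intervals cover counting error only.

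**Figure D4:**
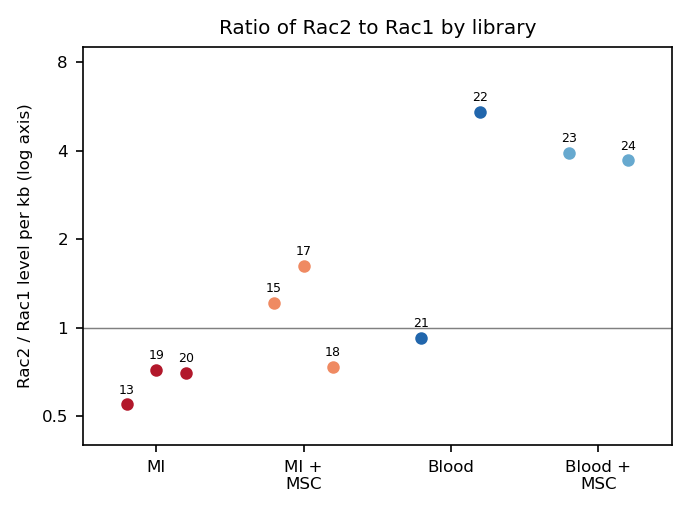
Ratio of Rac2 to Rac1 (normalized count per kilobase of exon, vertical log axis) in each library by group, with points numbered by label and a line at a ratio of 1. Blood 22, 23 and 24 lie between 3.71 and 5.42, the 6 cardiac libraries between 0.550 and 1.63, and Blood 21 at 0.927.

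The make-up of the oxidase transcripts was compared within each library as the share of the summed level per kilobase of exon of the 6 genes. In MI, Ncf1 (mean 25.2%, range 22.3 to 27.1) and Cyba (24.4%, 22.7 to 25.3) came first, with overlapping ranges, and Cybb (11%, 6.83 to 13.6) and Rac2 (10.4%, 9.21 to 11.3) had the lowest means, also overlapping. That order rests on MI 13, where Ncf4 took 19.2% from 19 reads. In MI 19 and MI 20 the lowest share was that of Ncf4 (9.55% and 10.3%), below Rac2 (10.8% and 11.3%) and Cybb (13.6% and 12.6%). In Blood, Rac2 (24.8%, 20.7 and 28.9) and Ncf1 (23.8%, 23.4 and 24.2) had the highest means and Cybb (6.46%, 6.09 and 6.82) the lowest. Rac1 (13.8%) took 22.3% in Blood 21, above Rac2 there, and 5.33% in Blood 22, below Cybb there, so its place in the order differed between both libraries. Rac2 thus took a larger share in each blood library than in each cardiac library. In MI + MSC, Ncf1 had the largest mean share (36.0%, 25.4 to 44.8), and in Blood + MSC it was again first (29.8%, 30.8 and 28.9). The order depends on the length used. With the canonical transcript in place of all exons, Cyba, whose canonical transcript has 793 bases against 2305 bases of merged exons, had the highest mean level per kilobase in each group.

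With MSC treatment the mean levels of 5 oxidase genes were higher in the heart, but 0 of 6 passed the test, as 0% of all 11549 tested genes did in limma. At an unadjusted p under 0.05, 1 of the 6 genes and 925 of all tested genes stood in this comparison, and edgeR, DESeq2 and limma-voom on the recovered reads also called 0 of the 6. Of all genes they tested, edgeR called 0.0545%, DESeq2 0.684% over all libraries and 1.28% on the groups compared, and limma-voom 2.26%. Ncf1 had the highest log2 fold change, at 1.16 (SE 0.46, unadjusted p = 0.0282, adjusted p = 0.606), followed by Rac2 at 0.82 (SE 0.42, adjusted p = 0.642). Cybb, Cyba and Ncf4 were at 0.52, 0.48 and 0.40, and Rac1 at 0.02. In all 6 genes the MI and MI + MSC ranges overlapped, while the treated libraries all exceeded the untreated ones in 7.05% of all tested genes. The median was 0.50 over the 6 genes and -0.01 over all tested genes. The differences depended on MI 13, the shallowest library. Without it, Ncf1 was at 0.70, Rac2 at 0.36 and Cyba at 0.13, while Cybb and Rac1 changed sign to -0.16 and -0.31. Within MI + MSC, library 18 had the lowest Ncf1, Ncf4 and Rac2 and also the lowest neutrophil marker sum, and library 17 had the highest Ncf1 and the highest neutrophil marker sum. Cybb went the other way, highest in library 18 (706) and lowest in library 17 (356), and the part of the cell mixture in this spread was not tested. The sum of 6 endothelial markers was 1614 to 1758 for MI and 378 to 720 for MI + MSC, with all 6 below 0 in log2 fold change and 0 called. The 13 macrophage and monocyte markers, cells that also use this oxidase, had a median of 0.67 with 10 of 13 above 0, the 8 striated muscle markers a median of -1.36 with all 8 below 0, and the 12 neutrophil markers a median of 0.13 with 6 of 12 above 0, with 0 called in each list. The log2 ratio of Rac2 to Rac1 was higher by 0.80 in MI + MSC than in MI, with each treated library above each untreated one (exact permutation p = 0.1, the smallest that 3 against 3 allows). In blood the same difference was 0.77 (exact permutation p = 1), with Blood 21 below and Blood 22 above both treated libraries.

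In blood, 0 of 6 genes passed the test between Blood + MSC and Blood, again against 0% of all tested genes in limma. At an unadjusted p under 0.05 stood 0 of the 6 genes and 848 of all tested genes, and edgeR, DESeq2 and limma-voom called 0 of the 6. Over all genes, edgeR called 0.448%, DESeq2 1.55% and 0.338% in its 2 fits, and limma-voom 0%. Rac1 had the largest difference, at -0.99 (SE 0.53, adjusted p = 0.684), with both treated libraries below both untreated ones. It rested on Blood 21, since it was -0.14 without that library and was called lower without Blood 22 (-1.83, adjusted p = 0.0362), where 3.38% of all genes were called lower. Ncf4 was at 0.31, Ncf1 at 0.18, Cybb at -0.17, Rac2 at -0.22 and Cyba at -0.24, and all 5 changed sign when a Blood library was left out or with another scaling. The 6 genes summed to 6178 and 5763 normalized counts with MSCs against 6253 and 7500 without, and the neutrophil marker sum was 24967 and 17190 with MSCs against 45558 and 54394 without. The difference between tissues in the MSC effect, tested as an interaction, passed for 0 of 6 genes and for 0% of all tested genes in limma, with 0 of the 6 at an unadjusted p under 0.05 and 0 called by edgeR, DESeq2 or limma-voom, which called 0%, 0.173% and 0% of all genes. The interaction ranged from 0.09 for Ncf4 to 1.04 for Rac2 (SE 0.47 to 0.83, adjusted p = 0.638 to 0.953). The comparisons of MI + MSC with MI and of MI with Blood share the MI libraries, so that the higher values in the first and the lower values in the second are not independent.

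Proteins that switch the oxidase on or off, or anchor its parts, were taken as a list of 23 genes, all tested. In MI against Blood, 14 of 23 were called lower, against 13.5% of all tested genes, and 0 higher, with a median log2 fold change of -1.41 against 0.15 over all tested genes. Arhgap15, a GTPase-activating protein that turns Rac off, was at -2.55 (SE 0.51, limma adjusted p = 0.00383), with means of 59.3 normalized counts in MI and 411 in Blood. Coro1a, an actin-binding protein that also binds Ncf4, was at -2.50 (SE 0.55, adjusted p = 0.00649), Arhgdib, which holds Rac GTPases in the cytosol, at -2.24 (SE 0.51, adjusted p = 0.00712), and the Src-family kinase gene Fgr at -1.98 (SE 0.44, adjusted p = 0.00652). Activators and inhibitors of Rac were thus both among the genes that fell. Cybc1, the chaperone of the membrane cytochrome, was at -1.20 (SE 0.34, adjusted p = 0.0189). In MI + MSC against Blood + MSC, 5 of 23 were called lower, against 5.85% of all tested genes, and 0 higher (median -0.89). They were Dock2, the exchange factor that loads Rac in leukocytes, at -2.67 (SE 0.51, adjusted p = 0.00667), Arhgap15 at -2.13, Fgr at -1.67, the exchange factor Vav1 at -1.55 and the kinase gene Prkcd, whose product phosphorylates Ncf1, at -1.29. The means of Dock2 were 149 for MI, 168 for MI + MSC, 784 for Blood and 1079 for Blood + MSC. These counts moved with the tool and with single libraries. In MI + MSC against Blood + MSC edgeR called 11 of 23 lower (14% of all genes) and DESeq2 on the groups compared 17 (18.9%). DESeq2 over all libraries called 12 lower and 1 higher (11.2% of all genes lower), and limma-voom 13 lower and 1 higher (20.4% lower). In MI against Blood these tools called 16, 11, 16 and 12 lower (13.8%, 8.99%, 15.7% and 14.3%), in the same order. In MI against Blood 6 of 23 were called lower without Blood 22 and 8 with library size scaling, where 9.78% and 6.91% of all genes were called lower. In MI + MSC against Blood + MSC 0 were called lower without Blood + MSC 23 or 24 (0.348% and 1.09% of all genes), 1 without MI + MSC 18 (2.12%), 2 without MI + MSC 15 (2.72%), 11 without MI 13 (10.6%), 9 without Blood 21 (10.3%) or Blood 22 (10.2%), and 16, with 1 higher, without MI 13 and Blood 21 (19.9%). In the main limma fit 0 of 23 were called in both comparisons of MSC treatment. In Blood + MSC against Blood and in the interaction the count was not 0 when Blood 22 was left out, which leaves a lone Blood library. In MI + MSC against MI 21 of 23 log2 fold changes were above 0, as were 48.9% of all tested genes, with a median of 0.44.

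**Figure D5:**
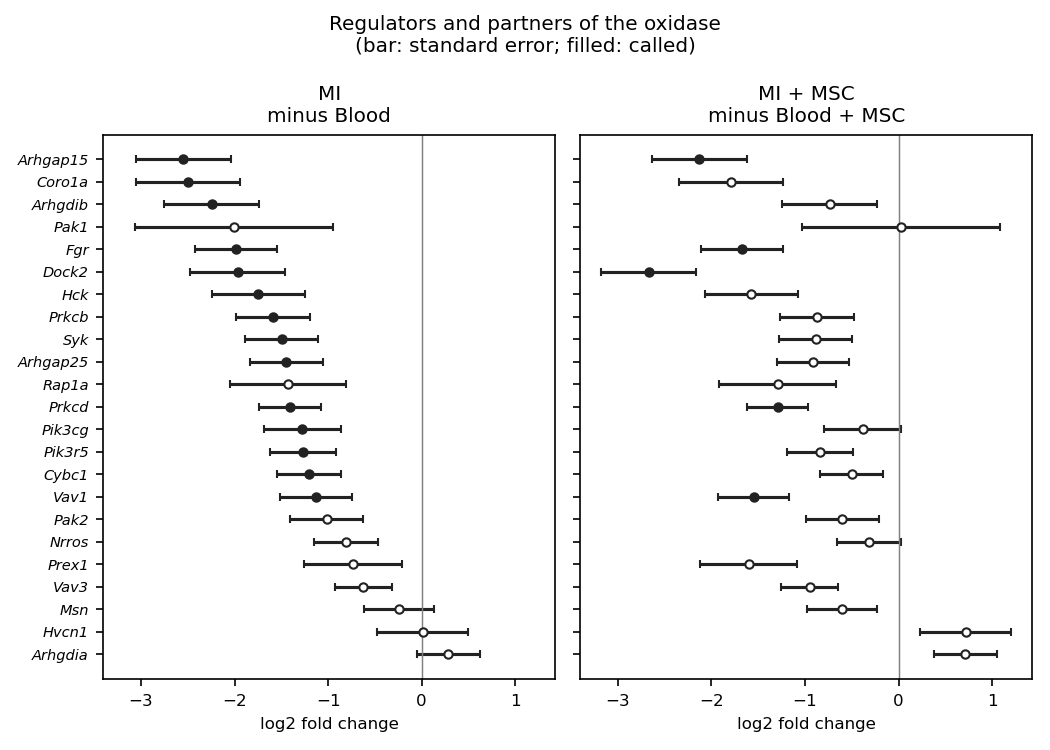
Log2 fold change of the 23 regulators and partners of the oxidase in MI minus Blood and MI + MSC minus Blood + MSC (horizontal axis), with standard errors as bars and filled points where the gene was called lower, ordered by the first comparison. Most points lie below 0, with 14 filled in the first comparison and 5 in the second.

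Of 9 genes of other NADPH oxidases, 8 were in the tables and 1 passed the filter. This was Nox4, an oxidase of vascular and muscle cells, with a mean of 25.7 for MI, 9.87 for MI + MSC and 0.85 for Blood + MSC, with 7 to 13 reads in each cardiac library and 0 in both Blood libraries. It passed the filter through MI 13 (58.8 normalized counts from 7 reads), while MI 19 and MI 20 were at 12.5 and 5.66, so its difference between MI and Blood is given as values with no test.

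Of 12 transcription factors known to act on phagocyte oxidase genes, 10 were tested. In MI against Blood 3 of 10 were called, where 34.7% of all tested genes were called in either direction, so the share is near that of all genes. Spi1, which encodes PU.1, was called lower in MI than in Blood (-2.10, SE 0.53, limma adjusted p = 0.0117), with means of 439 normalized counts for MI, 647 for MI + MSC, 1613 for Blood and 1096 for Blood + MSC. Runx1 was higher (0.93, SE 0.31, limma adjusted p = 0.0391), but this call was not firm. It was lost without MI 19, without MI 20 and without any single MI + MSC library. It was also lost with TMM scaling, with no filter on low values, with edgeR and with DESeq2 on the groups compared. Cebpe, a factor of late granulocyte maturation, was the other gene called, with means of 6.46 for MI and 29.1 for Blood. Its MI mean lies below the filter of 10 and it passed through its higher blood values, so it is given as values with no test. Over the alternatives 1 to 4 of 10 were called, with 1 without Blood 22 (34.3% of all genes), Blood + MSC 23 (28.7%) or Blood + MSC 24 (28.8%) and with DESeq2 on the groups compared (20.7%). In the other 3 comparisons the main limma fit called 0 of 10. In MI + MSC against Blood + MSC, DESeq2 called 4 over all libraries and 5 in the fit of the groups compared, where it called 29% and 39.2% of all genes. There edgeR called 0 higher and 1 lower (28.5% of all genes called), and limma-voom 1 higher and 2 lower (42.3%). Without MI 13 limma called 1 higher and 1 lower (22.9%). Some fits that left a lone Blood library also called genes in these comparisons.

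The genes whose log2 levels followed each subunit most closely over the 10 libraries were listed as a description. These correlations are across libraries that share tissue, depth and cell mixture. Rac2 was followed by Ogt (Pearson's r = 0.995), Ptprc (0.995), which encodes the leukocyte surface phosphatase CD45, and Ostf1 (0.994). Ncf4 was followed by Phf8 (0.993), Rasgrp4 (0.992) and Ptpn6 (0.990), the tyrosine phosphatase of blood cells. Cyba was followed by Casp1 (0.990), Arhgap30 (0.990) and Ppt1 (0.989), and Ncf1 by Ddx52 (0.988), Cd300a (0.981) and C5ar2 (0.981), a receptor of the complement fragment C5a. Rac1 was followed by Lims1 (0.992), Nptn (0.973) and Tpm4 (0.967), which, like Rac1, are not restricted to leukocytes. As Rac1 was at 1830 in Blood 21 and at 294 to 599 elsewhere, these correlations may rest largely on that library, which was not tested. Cybb was followed by Ogg1 (0.973), Cep20 (0.970) and Bak1 (0.963). No gene appeared on the list of more than 1 subunit.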

How the data were processed

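RNA-seq of Ly6G+ cells was available for 10 libraries. According to the study's methods, the authors trimmed the reads with Trimmomatic, removed duplicates with Picard, mapped to GRCm39 with STAR, assigned them to genes by strand with featureCounts, discarded mitochondrial reads, and used DESeq2 for normalization. The deposited signal values are counts divided by the size factor of each library. Both deposited tables were equal in all 281850 values, and 100% of the values were whole multiples of a single read (within 0.1 reads), which gave the recovered reads behind each value. Size factors rest on most genes keeping their level, and removal of duplicates lowers the counts of abundant genes. No deposited column was unmatched.

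limma (3.58.1, R 4.3.3) with an intensity trend was fitted to log2(normalized count + 2), with 1 mean per group over all 10 libraries, for 11549 genes whose mean reached 10 normalized counts, and fold changes on this scale understate those of low genes. A gene was called at a Benjamini-Hochberg adjusted p under 0.05 over all tested genes and a log2 fold change of 0.5 or more in size (the interaction needed the adjusted p alone). edgeR (4.0.16), DESeq2 (1.42.0) and limma-voom on the recovered reads, other pseudocounts, filters and scalings, and each library left out were alternatives. Leaving out MI 13 and Blood 21 together and the canonical transcript length were added after seeing the data. The fits across genes were tested on simulated data. Ratios of Rac2 to Rac1 used reads plus 0.5 per kilobase and two-sided exact permutation tests (scipy 1.17.1). Gene models came from GENCODE for GRCm39, which held 27906 of the 28185 identifiers, and promoter windows from the GRCm39 sequence.

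The genes and lists were chosen with earlier results of these data known. All 6 subunit genes are named, and of each list the called genes with the largest fold changes, at most 4 per comparison. Beyond that rule, Cybc1, Prkcd and, for its means, Dock2 were named after their values were seen. Of the lists, 1 gene and 1 whole list, and 1 promoter window, are not reported here.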

Additional observations from a re-analysis of the deposited data

How the results depend on the processing

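The count of subunit genes called in MI + MSC minus MI and in the interaction was 0 under every alternative run. In Blood + MSC minus Blood it was 0 to 1 when single libraries were left out, with Rac1 called without Blood 22 (12.8% of all genes were called there). In MI minus Blood it was 3 to 4 when single cardiac libraries were left out (10.6% to 12.4% of all genes were called lower there). With library size scaling it was 2 (6.91%). It was 5, with Rac1 added, with DESeq2 over all libraries and with limma-voom (15.7% and 14.3% of all genes were called lower there). In MI + MSC minus Blood + MSC it was 0 to 2, and 3, with Cyba added, with DESeq2 on the groups compared and without MI 13 and Blood 21 (18.9% and 19.9% of all genes were called lower there). The Rac2 to Rac1 difference lay between -2.32 and -1.47 when single libraries were left out, and its exact permutation p passed 0.05 without Blood 22, Blood + MSC 23 or Blood + MSC 24. It was -1.78 without MSC libraries and -1.75 within them, where no p under 0.05 is possible. Library size scaling moved the median of all genes in MI minus Blood from 0.15 to 0.68. The cause of these shifts was not tested.

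Of uncalled log2 fold changes, some near 0 changed sign. In MI + MSC minus MI, Rac1 was at -0.11 with library size scaling, -0.0801 and -0.0348 with DESeq2 over all libraries and over both groups, -0.12 with limma-voom and -0.31 without MI 13 and Blood 21, with -0.31 to 0.20 over single libraries left out, and Cybb was at -0.16 without MI 13 and Blood 21, with -0.16 to 0.90 over single libraries. In Blood + MSC minus Blood, library size scaling gave 0.128 for Cybb, 0.0557 for Cyba and 0.0827 for Rac2, edgeR gave 0.0013 for Cybb, limma-voom gave 0.0201 for Cybb and 0.0743 for Rac2, and leaving out MI 13 and Blood 21 gave -0.0343 for Ncf1 and -0.13 for Ncf4. Over single libraries left out the ranges there were -0.48 to 0.14 for Cybb, -0.55 to 0.0639 for Cyba, -0.0343 to 0.39 for Ncf1, -0.13 to 0.75 for Ncf4 and -0.65 to 0.21 for Rac2. Rac1 in MI minus Blood was at 0.0406 without MI 13 and Blood 21, and in the interaction at -0.17. In MI + MSC minus Blood + MSC, single libraries left out gave -0.59 to 0.0203 for Cybb and -0.21 to 0.0197 for Rac1, and the interaction of Ncf4 was -0.34 with library size scaling, -0.12 with limma-voom and -0.35 to 0.53 over single libraries.

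No paired analysis was possible because the labels give no replicate numbers shared between groups. With 2 libraries per blood group, leaving one out leaves a lone library that is assumed to vary like the others, and the reads of MI 13 (148594) and Blood 21 (268860) limit every value that rests on them.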
